A study of Homo sapiens with 6 samples.

Results

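ATP-binding cassette (ABC) transporters were examined in HCCLM3, a human hepatocellular carcinoma (HCC) cell line with low expression of *PON1*, the gene of a secreted liver enzyme carried on high-density lipoprotein. Members were the genes whose symbol is ABC followed by a letter from A to G and a number, which gave 45 of the 20381 genes of the deposited table. Poly(A) RNA was sequenced in 3 libraries of a stable *PON1* overexpression line, PON1-OE, and in 3 of the negative control, NC. The PON1-OE cells had been infected with a lentivirus carrying the *PON1* coding sequence, the NC cells with the empty vector according to the series' design text, and both were selected with puromycin. That text names 15% serum and a lysis time of 24 h from transfection. The study's methods name a lower serum level, and the sample labels name stable overexpression. No source used here says whether the libraries of a group came from separate cultures, so errors and p-values describe the spread between libraries. The totals were 15706672 to 17948383 estimated counts per library. *PON1* had 0, 2 and 3 counts in replicates 1 to 3 of NC and 155, 181 and 167 in those of PON1-OE, an arrangement that follows the labels. Of 9 hepatocyte or HCC markers, *KRT8* had 35483 to 42426 counts and *HNF4A* 1223 to 1492, whereas *ALB* had 4 to 13, *APOA1* 0 to 5, *TTR* 0 to 2 and *SERPINA1* 0 to 1. Of the other 3, *KRT18* had 24078 to 26723 counts, *AFP* 4 to 18 (log2 difference 0.88, unadjusted p = 0.075 in edgeR) and *APOB* 60 to 106. Of the 9, 6 were tested, and *APOB* was the single one with an unadjusted p under 0.05 (log2 difference −0.36, unadjusted p = 0.0456 in edgeR). That was 16.7% of the 6, against 11.1% of all genes tested. Of 3 leukocyte markers, *PTPRC* had no count in any library, *CD14* had 0 to 5, and *CD68* had 3514 to 4097 counts with a log2 difference of 0.13 between PON1-OE and NC (unadjusted p = 0.00943, adjusted p = 0.252 in edgeR). The summed level of that list was 206 to 227 counts per 1000000 (CPM) in the NC libraries and 224 to 248 in the PON1-OE libraries, and its part in the results was not tested. Of 3 endothelial, 3 fibroblast and 3 cholangiocyte markers, only 1, 1 and 2 had enough counts to be tested. None of these reached an unadjusted p under 0.05 in edgeR. The endothelial one, *PECAM1*, was higher in every PON1-OE library (log2 difference 0.20, unadjusted p = 0.0512 in edgeR), while *CDH5* had 0 to 1 counts. The others tested, *DCN*, *KRT7* and *KRT19*, had log2 differences of 0.25, 0.07 and −0.0056, with overlapping groups.

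ABC proteins bind and hydrolyze ATP with a conserved nucleotide-binding domain, and most use it to move a substrate across a membrane. In hepatocytes, members at the canalicular face release bile salts, phospholipid, sterols and drug conjugates into bile, others at the sinusoidal face return conjugates or cholesterol to blood, and several serve peroxisomes, mitochondria and lysosomes. Members of subfamilies E and F have no membrane domain and act in ribosome recycling and translation. The drug pumps are best known in HCC for multidrug resistance, and the sterol exporters for passing cholesterol to apolipoproteins and bile.

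To see which members these cells express, levels were expressed per length as TPM, which sum to 1000000 in a library, computed from the counts and the summed exon length of each gene. Subfamily F, with 3 members, summed to 363 ± 7.88 TPM (SD, n = 6 libraries), which was 32.1% of the family total of 1130 ± 15.6 TPM. Subfamily C followed with 303 ± 6.76 TPM from 11 members, of which 8 passed the filter on low counts. Subfamily B summed to 123 ± 3.58 TPM over 9 members and subfamily E, which is *ABCE1* alone, to 121 ± 8.38 TPM. Subfamily G had 88.5 ± 7.22 TPM, nearly all of it from *ABCG2*. Subfamily D had 82.3 ± 1.38 TPM over 4 members, and subfamily A, the largest with 12 members, had the lowest sum, 51.1 ± 1.88 TPM.

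The members at the top of subfamilies other than D were *ABCF2*, a cytosolic member without membrane domains (189 ± 6.08 TPM), and *ABCC2*, the canalicular exporter of glutathione and glucuronide conjugates (172 ± 5.26 TPM). They were followed by *ABCE1*, the ribosome recycling factor (121 ± 8.38 TPM), *ABCG2*, the breast cancer resistance protein (88.4 ± 7.18 TPM), *ABCB1*, or P-glycoprotein (50.5 ± 2.12 TPM), and *ABCA2*, an endosomal lipid transporter (15.7 ± 1.48 TPM). In the order over all members, *ABCF2*, *ABCC2* and *ABCE1* held ranks 1 to 3 without overlap of their libraries. *ABCE1* and *ABCF1* at rank 4 overlapped. *ABCC1*, *ABCF3*, *ABCB1* and *ABCC3* at ranks 7 to 10 overlapped each with its neighbor, so that their order was not resolved. With the length of the longest transcript in place of the summed exons, *ABCC2* was at rank 1 and *ABCF2* at rank 2.

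Too few counts for a test were found in 14 of the 45 members. These were *ABCA6*, *ABCA8*, *ABCA9*, *ABCA12*, *ABCA13*, *ABCB5*, *ABCC8*, *ABCC11*, *ABCC12*, *ABCD2*, *ABCG1*, *ABCG4*, *ABCG5* and *ABCG8*. In 10 members, no library had more than 3 counts, and *ABCB5* and *ABCG8* had no count at all, which allows up to 0.166 to 0.192 CPM per library at a floor of 3 counts. This floor covers counting error only. The most abundant of the 14 was *ABCC11*, at 0.209 ± 0.0667 TPM. The lowest member that passed the filter was *ABCC9*, a subunit of ATP-sensitive potassium channels, at 0.508 ± 0.166 TPM.

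**Figure D1:**
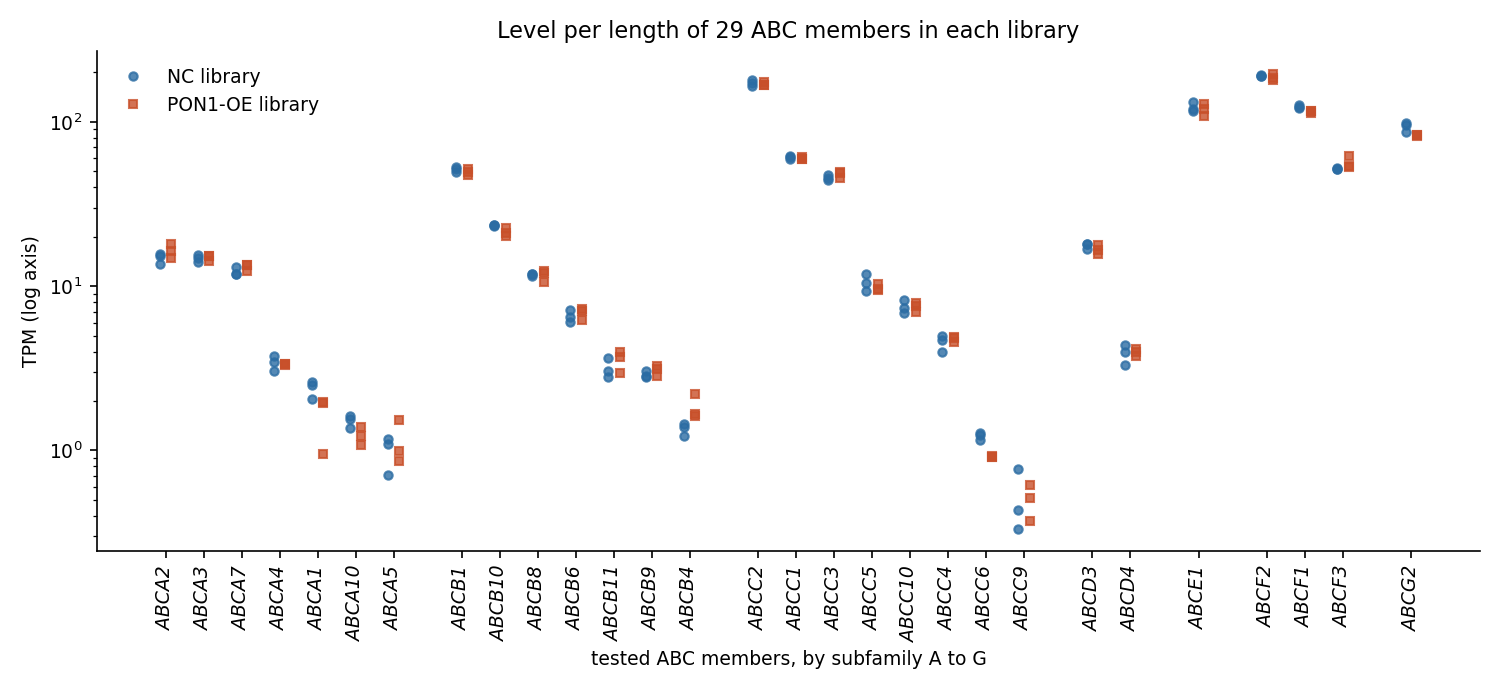
Level per length (TPM, log axis) of 29 ABC members that passed the filter on low counts, ordered within subfamilies A to G; each circle is an NC library and each square a PON1-OE library. Levels run from 189 TPM for *ABCF2* to 0.508 TPM for *ABCC9* on average, and the libraries of both groups lie close together for most members.

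To test whether PON1-OE differed from NC, all 11958 genes that passed the filter were fitted with edgeR's quasi-likelihood test, and fold changes are log2 of PON1-OE over NC (log2FC). After Benjamini-Hochberg adjustment edgeR called 0 of the 31 members at 0.05, against 0.677% of all genes tested. limma-voom also called 0 (0.544% of all genes). DESeq2 called 0 (0.962% of all genes), but it gave no adjusted p for 20 of the 31 members, *ABCA1* and 3 drug pumps among them, nor for 7419 of all genes. At an unadjusted p under 0.05 in edgeR, 5 of the 31 members were called (16.1%), against 11.1% of all genes tested. Of these, *ABCA2* and *ABCF3* were higher (background 5.91%) and *ABCA1*, *ABCF1* and *ABCG2* were lower (background 5.17%) in PON1-OE. Under DESeq2, 2 members were called at an unadjusted p, *ABCA1* and *ABCG2*, against 7.58% of all genes. The median log2FC of the members was −0.0063 and that of all genes −0.0025. The median absolute log2FC was 0.0792 for the members and 0.0703 for all genes, and 20 of the 31 members lay within 0.1 of no difference, as did 64.3% of all genes. With the 1.5-fold threshold of the study's methods added, 0 members were called, against 0.61% of all genes at an unadjusted p and 0.0502% at an adjusted p. In these bulk libraries, fewer cells that express a gene and less RNA per cell cannot be told apart.

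Without overlap between the groups were 8 of the 31 members (25.8%), against 16.1% of all genes tested. *ABCB4* and *ABCF3* were higher in every PON1-OE library (background 8.32%), and 6 members, among them *ABCA1*, *ABCB10*, *ABCC6*, *ABCF1* and *ABCG2*, were lower (background 7.74%). *ABCB4*, *ABCB10* and *ABCC6* are described because of this, a choice made after their values were seen. With 3 libraries against 3, an exact permutation test cannot give a two-sided p below 0.1, and each of these 8 members reached 0.1.

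**Figure D2:**
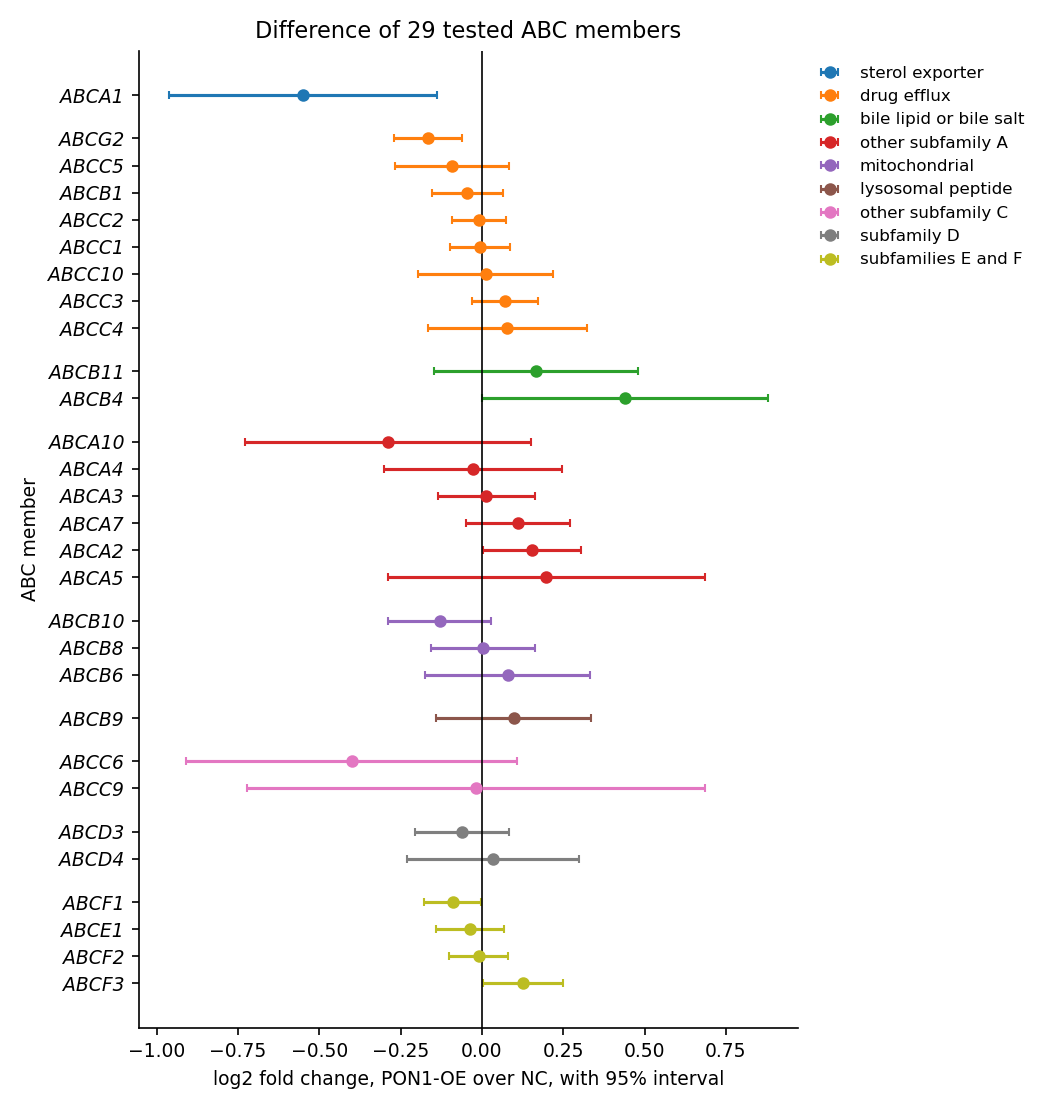
Log2 fold change (PON1-OE over NC) of 29 tested members with the 95% interval from edgeR's quasi-likelihood fit, grouped by role. The intervals of *ABCA1*, *ABCG2* and *ABCF1* lie below 0 and those of *ABCA2* and *ABCF3* above it; the interval of *ABCB4* just reaches 0.

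The sterol exporters were considered apart from the drug pumps. *ABCA1*, which loads cholesterol and phospholipid onto apolipoprotein A-I, was the single member of this group of 5 with enough counts to be tested, and it supplied 94.3% of the group's level per length. Its promoter is shown because it had the lowest log2FC among the tested members and because the oxysterol receptors LXR are known to act on this region through a direct repeat with a spacer of 4 bases (DR4). The sequence is from RefSeq on GRCh38.p14, chr9:104928106-104928405, minus strand, given 5′ to 3′ with 300 bases of which the last 50 follow the start site. Capitals mark, in order, an E-box (CACGTG) and a match to a DR4-like pattern (GGT and GGTCA with 7 undefined bases between) on the opposite strand.
ABCA1: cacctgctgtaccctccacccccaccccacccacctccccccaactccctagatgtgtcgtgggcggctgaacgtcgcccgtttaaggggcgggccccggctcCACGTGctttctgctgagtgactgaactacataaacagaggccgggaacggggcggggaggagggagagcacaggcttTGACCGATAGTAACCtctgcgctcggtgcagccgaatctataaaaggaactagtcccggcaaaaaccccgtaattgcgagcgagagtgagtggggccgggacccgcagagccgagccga
The E-box lies at −147 to −142 and the DR4-like match at −69 to −55 from the start site. Both strands of 27305 RefSeq promoters of this length were searched. The DR4-like pattern was found in 0.809% of them and the E-box in 7.43%. This pattern is open at 7 bases and misses DR4 elements that differ at its fixed bases. A promoter was given for 25 of the 31 tested members, and *ABCA1* was the single one with the DR4-like pattern, while the E-box was also found for *ABCB6* and *ABCF1*. Action of LXR through DR4 was already known for this region of *ABCA1*, so its match was not a test. These matches describe letters in this window and are not evidence of binding in these cells.

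*ABCA1* (ENSG00000165029, GENCODE v29 on GRCh38, chromosome 9, 104781002 to 104928237) had 98, 130 and 130 counts in replicates 1 to 3 of NC and 92, 45 and 90 in those of PON1-OE. After TMM scaling the levels were 5.93, 7.19 and 7.62 CPM in the NC libraries and 5.6, 2.81 and 5.75 CPM in the PON1-OE libraries. Every PON1-OE library lay below the lowest NC library, and PON1-OE replicate 2 was far below the others. Mean levels were 6.91 ± 0.876 CPM for NC against 4.72 ± 1.65 CPM for PON1-OE (SD over 3 libraries), giving a log2FC of −0.55 (standard error 0.198, 95% interval −0.96 to −0.14), with an unadjusted p of 0.0112 and an adjusted p of 0.27 in edgeR. Without PON1-OE replicate 2 the log2FC was −0.29, with an unadjusted p of 0.0905, and without NC replicate 3 the unadjusted p was 0.0505.

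The other sterol exporters were near absent in both groups. *ABCG1*, which passes cholesterol to mature high-density lipoprotein, had 0, 4 and 1 counts in the NC libraries and 1, 0 and 0 in those of PON1-OE. *ABCG4*, its close relative of brain, had 3, 2 and 2 counts in the NC libraries against 3, 2 and 0 with PON1-OE. *ABCG5* and *ABCG8*, which form the exporter of cholesterol and plant sterols into bile and the gut, had 1 count in NC replicate 1 and no count in any library, in that order. No fold can be given at these levels.

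Drug efflux pumps made up 38.9% of the family's level per length, 440 ± 10.7 TPM over 9 members, of which 8 were tested. Their median log2FC was −0.0078, with values from −0.17 to 0.08. *ABCG2*, an apical pump for many chemotherapeutic drugs, urate and porphyrins, was the single pump of the 8 called at an unadjusted p, where 11.1% of all genes were called, and it had the lowest p of the family. A promoter window of *ABCG2* is shown beside that of *ABCA1*, since these 2 members had the lowest p-values. It is the RefSeq window on GRCh38.p14, chr4:88231577-88231876, minus strand, and it is printed without capitals because it held no match to the DR4-like pattern, the E-box, the GC box (GGGCGG), the core letters read by the aryl hydrocarbon receptor (GCGTG) or TATAAA.
ABCG2: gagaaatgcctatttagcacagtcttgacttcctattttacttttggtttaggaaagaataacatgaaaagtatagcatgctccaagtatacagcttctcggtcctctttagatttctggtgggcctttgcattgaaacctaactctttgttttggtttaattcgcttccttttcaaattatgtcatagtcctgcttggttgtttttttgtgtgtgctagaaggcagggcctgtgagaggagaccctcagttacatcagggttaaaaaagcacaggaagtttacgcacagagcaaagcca
The GC box was found in 44.6% of all promoters, GCGTG in 36.3% and TATAAA in 12%, and among the 25 tested members with a window in 16, 13 and 4. The *ABCA1* window held 3 GC boxes and TATAAA at −31 to −26. No match in the *ABCG2* window says only that these letters are not in it, and *ABCG2* has further start sites that were not searched. The window lies wholly upstream of *ABCG2* as annotated in GENCODE v29, whose 5′ end on this strand is at 88231322.

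*ABCG2* (ENSG00000118777, chromosome 4 from 88090264 to 88231322) had 1841, 2221 and 2182 counts in replicates 1 to 3 of NC and 1745, 1752 and 1679 in those of PON1-OE. Scaled, these were 111, 123 and 128 CPM in the NC libraries against 106, 110 and 107 CPM with PON1-OE. The PON1-OE libraries lay together below all NC libraries, with NC replicate 1 next to them. Mean levels were 121 ± 8.42 CPM for NC against 108 ± 1.71 CPM for PON1-OE (SD over 3 libraries), giving a log2FC of −0.17 (standard error 0.0504, 95% interval −0.27 to −0.06), with an unadjusted p of 0.00358 and an adjusted p of 0.176 in edgeR. Over 12 other fits, those with a library left out included, the log2FC ranged from −0.22 to −0.12, with unadjusted p-values of 0.00049 to 0.0399 and adjusted p-values of 0.0804 to 0.596 (edgeR, DESeq2 or limma-voom).

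For the remaining pumps no difference was detected, and the fits were tight for those with many counts. *ABCC2* supplied 39.0% of the level of the pumps. It had 345, 330 and 362 CPM in the NC libraries against 336, 359 and 335 CPM with PON1-OE, with overlapping groups and a log2FC of −0.0093 (95% interval −0.09 to 0.07). *ABCC1*, a basolateral exporter of glutathione conjugates and leukotrienes, had 115, 119 and 119 CPM in the NC libraries against 115, 121 and 116 CPM with PON1-OE, with a log2FC of −0.0063 (95% interval −0.10 to 0.09). For *ABCB1*, which extrudes a wide range of hydrophobic drugs, CPM was 77.1, 78.4 and 73.4 in the NC libraries against 76.2, 71.8 and 73.9 with PON1-OE, with a log2FC of −0.04 (95% interval −0.15 to 0.06). *ABCC3*, the sinusoidal exporter of bile salt and drug glucuronides, had 112, 108 and 117 CPM in the NC libraries against 119, 123 and 112 CPM with PON1-OE, with a log2FC of 0.07 (95% interval −0.03 to 0.17). The libraries of the groups overlapped for all 4 of these pumps. Their p-values miss the threshold, which does not show equal levels.

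The pumps of lower level were less precisely measured. *ABCC4*, which exports cyclic nucleotides and bile salts to blood, had 9.98 ± 1.11 CPM for NC against 10.6 ± 0.519 CPM for PON1-OE, a log2FC of 0.08 (95% interval −0.17 to 0.32). *ABCC5*, an exporter of nucleotide analogs, had 30.7 ± 3.77 CPM for NC against 28.8 ± 1.18 CPM for PON1-OE, a log2FC of −0.09 (95% interval −0.27 to 0.08). It reached an unadjusted p of 0.0432 in edgeR without NC replicate 2, the only p under 0.05 among 12 other fits. Without NC replicate 1 its log2FC was −1e-04, with an unadjusted p of 0.999 (edgeR). *ABCC10*, a further broad drug exporter, had a log2FC of 0.01 (95% interval −0.20 to 0.22). *ABCC11* had 5, 11 and 6 counts in the NC libraries against 5, 5 and 7 with PON1-OE and was not tested.

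**Figure D3:**
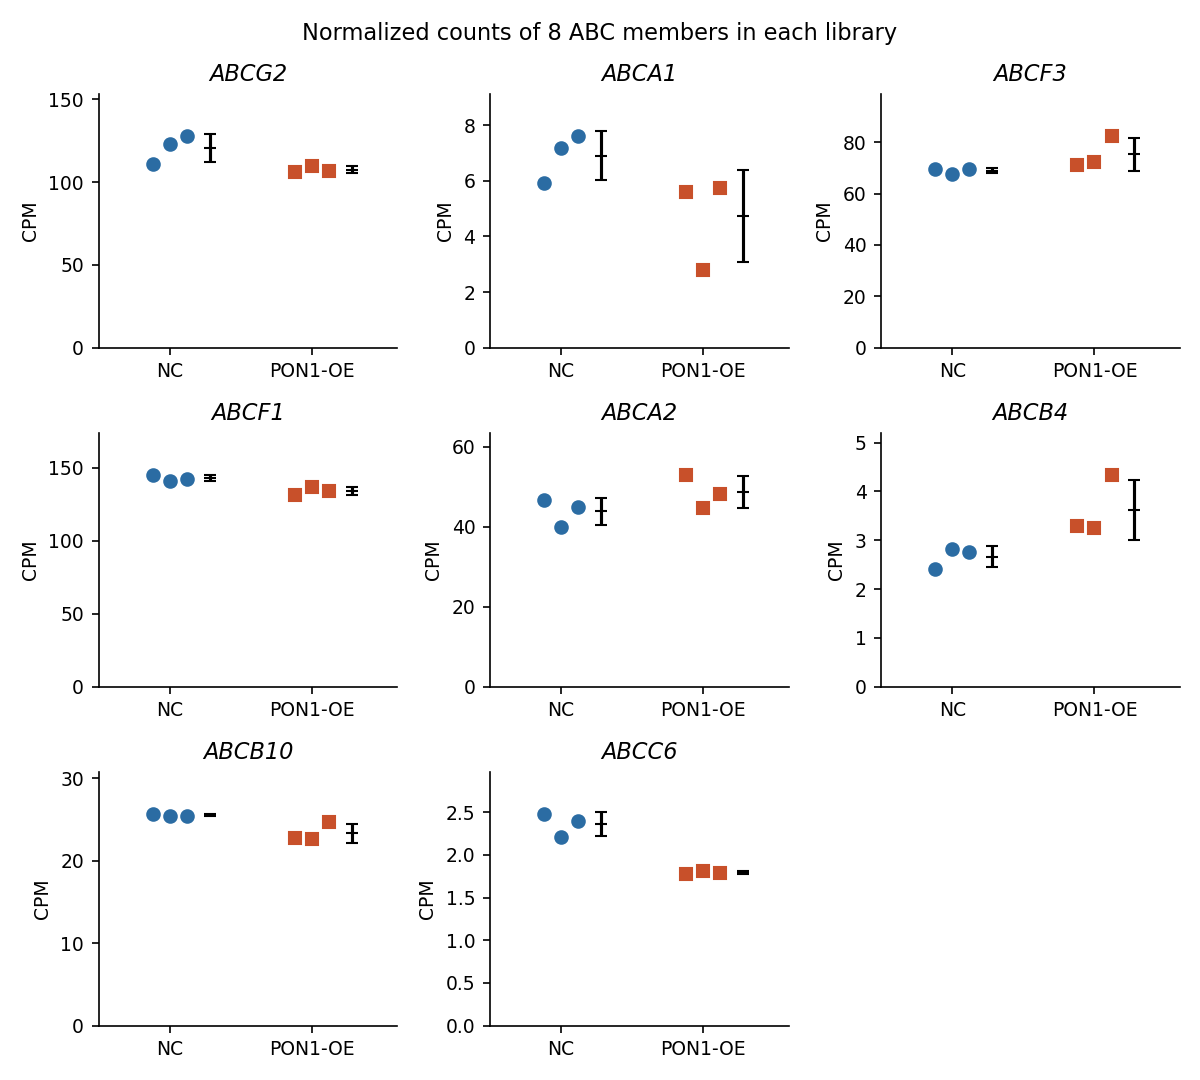
TMM-normalized CPM of 8 ABC members with an unadjusted p under 0.05 or without overlap of the groups, in each NC (circles) and PON1-OE (squares) library; black bars give the mean and SD of 3 libraries, and each axis starts at 0. *ABCA1* has 1 PON1-OE library at 2.81 CPM, far below the rest, whereas *ABCG2* and *ABCC6* show close PON1-OE libraries below all NC libraries.

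Among the canalicular lipid and bile salt exporters, *ABCB4*, the phosphatidylcholine floppase of bile, had 40, 51 and 47 counts in the NC libraries against 54, 52 and 68 with PON1-OE. All PON1-OE libraries were above all NC libraries, and replicate 3 was the highest. The log2FC was 0.44 (standard error 0.211), with an unadjusted p of 0.0501 and an adjusted p of 0.451 in edgeR, and without PON1-OE replicate 3 it was 0.29. With RLE scaling, 10 or more counts per library, no filter, or without PON1-OE replicate 1 or 2, edgeR's unadjusted p was 0.0383 to 0.0499. It was 0.0547 with limma-voom, 0.0991 with DESeq2 and 0.0572 in edgeR with a block for replicate number. Without any one NC library, or without PON1-OE replicate 3, it was 0.0582 to 0.239 (edgeR). *ABCB11*, the bile salt export pump, had 6.23 ± 0.862 CPM for NC against 7.01 ± 0.977 CPM for PON1-OE, with overlapping groups and a log2FC of 0.17 (95% interval −0.15 to 0.48).

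The other lipid transporters of subfamily A numbered 11, of which 6 were tested, with a median log2FC of 0.06. *ABCA2* had 46.6, 40 and 45 CPM in the NC libraries against 53, 44.8 and 48.3 CPM with PON1-OE. The groups overlapped, and the log2FC was 0.15 (standard error 0.0724), with an unadjusted p of 0.0461 and an adjusted p of 0.443 in edgeR. The unadjusted p was 0.241 without NC replicate 2 and 0.252 without PON1-OE replicate 1. *ABCA3*, the lamellar body phospholipid transporter, and *ABCA7*, a phospholipid exporter related to *ABCA1*, had log2FC values of 0.01 and 0.11. *ABCA4*, known from retinoid transport in the eye, had a log2FC of −0.03. *ABCA5* and *ABCA10*, neighbors on chromosome 17 that share 318 exonic bases on the same strand, had values of 0.20 and −0.29, and their summed counts gave −0.02 (unadjusted p = 0.898 in edgeR).

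Mitochondrial members of subfamily B act in heme and iron metabolism. *ABCB10*, which supports heme synthesis, had 25.7, 25.5 and 25.4 CPM in the NC libraries against 22.8, 22.6 and 24.7 CPM with PON1-OE. It was lower in every PON1-OE library, by a small amount, with a log2FC of −0.13 (unadjusted p = 0.102 in edgeR). *ABCB6*, a porphyrin transporter, and *ABCB8* had values of 0.08 and 0.0035. *ABCB6* shares 2864 exonic bases with another gene of the table on the same strand, and with the counts of that gene added the log2FC was 0.16 (unadjusted p = 0.174). The lysosomal peptide transporter *ABCB9* had a log2FC of 0.10 (95% interval −0.14 to 0.34).

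In the rest of subfamily C, *ABCC6*, a liver transporter through which ATP leaves the cell and whose loss causes pseudoxanthoma elasticum, had 41, 40 and 41 counts in the NC libraries against 29, 29 and 28 with PON1-OE. The libraries of each group were nearly equal and the groups did not overlap. The log2FC was −0.40 (standard error 0.244, 95% interval −0.91 to 0.11), with an unadjusted p of 0.116 in edgeR. *ABCC6* has near-identical pseudogenes with which reads can be exchanged, so its counts are uncertain. *ABCC9* had a log2FC of −0.02 (95% interval −0.72 to 0.69). *ABCC8* and *ABCC12* were not tested.

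In subfamily D no difference was detected in the 3 tested members, whose log2FC lay between −0.06 and 0.03. *ABCD3*, the peroxisomal importer of branched-chain and bile acid precursors, had a log2FC of −0.06 (95% interval −0.21 to 0.08). *ABCD4*, which acts in the release of cobalamin from lysosomes, had 0.03 (95% interval −0.23 to 0.30). *ABCD2* had 2 counts in NC replicate 2 and no count in the other libraries.

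The soluble members of subfamilies E and F were the largest group by level, 483 ± 9.28 TPM and 42.7% of the family. *ABCF3*, a cytosolic member of the translation-associated subfamily F, had 69.6, 67.8 and 69.5 CPM in the NC libraries against 71.1, 72.2 and 82.5 CPM with PON1-OE. Its groups did not overlap, and PON1-OE replicate 3 stood above the rest. The log2FC was 0.13 (standard error 0.0585), with an unadjusted p of 0.0434 and an adjusted p of 0.435 in edgeR, and without PON1-OE replicate 3 it was 0.06 with an unadjusted p of 0.358. *ABCF1*, which takes part in translation initiation, had 145, 141 and 142 CPM in the NC libraries against 131, 137 and 134 CPM with PON1-OE. Its PON1-OE libraries lay below the lowest NC library, with a log2FC of −0.09 (standard error 0.0419), an unadjusted p of 0.0443 and an adjusted p of 0.439 in edgeR. Blocking on replicate number the unadjusted p of *ABCF1* was 0.0631, and without PON1-OE replicate 1 it was 0.165 (edgeR). It was under 0.05 in 4 of 12 other fits (edgeR, DESeq2 or limma-voom). *ABCE1* and *ABCF2* had log2FC values of −0.04 (95% interval −0.14 to 0.07) and −0.01 (95% interval −0.10 to 0.08). *ABCF2* shares 1914 exonic bases with the readthrough gene *ABCF2-H2BK1*, which had 0 to 82 counts, and the sum gave −0.02. *ABCB9*, *ABCC10*, *ABCC11* and *ABCE1* overlap exons of other genes of the table on the opposite strand, and *ABCG5* and *ABCG8* overlap each other by 137 exonic bases. Without a stated use of strand, reads cannot be told apart at these overlaps.

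**Figure D4:**
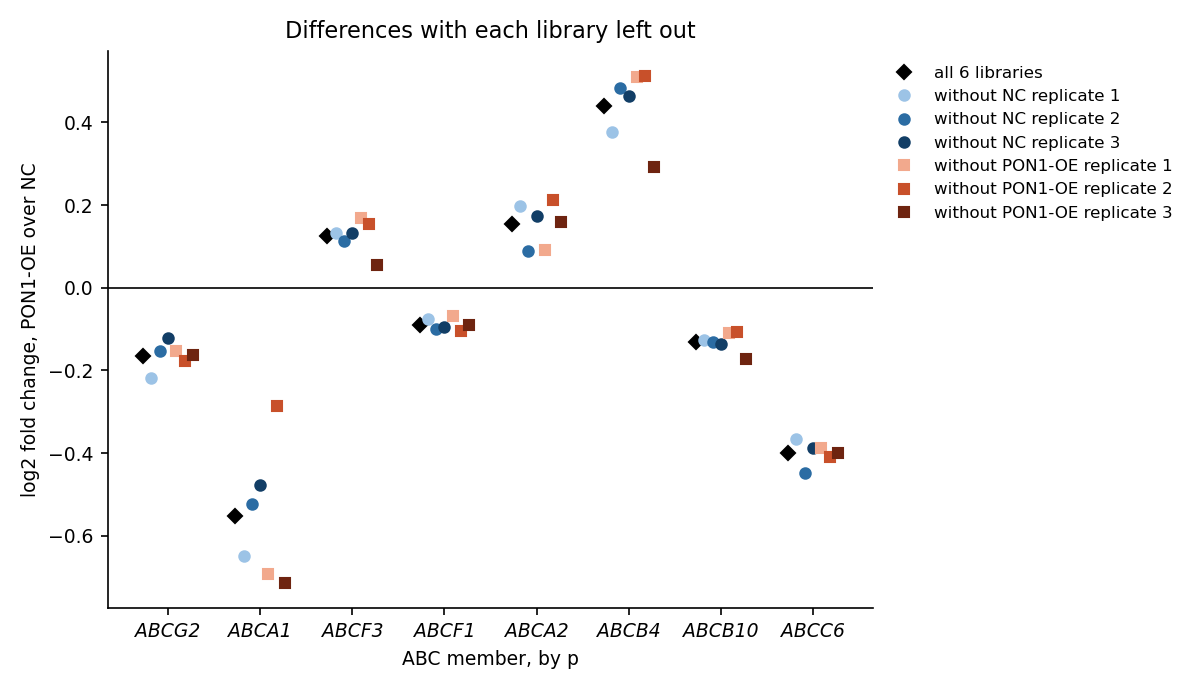
Log2 fold change (PON1-OE over NC) of the same 8 members with all 6 libraries (diamonds) and with each NC (circles) or PON1-OE (squares) library left out. *ABCG2* stays between −0.22 and −0.12, *ABCA1* moves to −0.29 without PON1-OE replicate 2, and *ABCB4* and *ABCF3* come closest to 0 without PON1-OE replicate 3.

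Genes that work with these transporters were taken from 4 lists, which were chosen with earlier results of these data known. The share called in each list is therefore a description and not a test of the list. The receptors of the LXR pathway and sterol handling genes had 16 of 19 members tested, and 5 (31.2%) had an unadjusted p under 0.05 in edgeR, against 11.1% of all genes tested. *NPC1*, which moves cholesterol out of lysosomes, had 765 ± 35.7 CPM for NC against 850 ± 20.4 CPM for PON1-OE (log2FC 0.15, adjusted p = 0.0613), and *SMPDL3A*, a phosphodiesterase induced by LXR, 9.11 ± 0.33 and 11.8 ± 1.2 CPM (log2FC 0.37, adjusted p = 0.193). The other 3 were lower in PON1-OE and are named because the count is small. They were *LPCAT3*, *SREBF1* and *NR1H3*, which encode a phospholipid acyltransferase, the lipogenic factor SREBP-1 and LXRα, with log2FC values of −0.19, −0.16 and −0.30. Their adjusted p-values in edgeR were 0.211, 0.345 and 0.351. The groups overlapped for *SREBF1*. *NR1H3* had 8.62 CPM in PON1-OE replicate 3 against 12.2 CPM in each of replicates 1 and 2. The list thus held values on both sides of 0, with a median of −0.0025.

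The regulators of efflux pumps had 16 of 18 members tested, and 4 (25.0%) had an unadjusted p under 0.05, against 11.1% of all genes. *MSN*, which encodes moesin, a linker between membrane proteins and actin that anchors some pumps, rose from 1620 ± 61.8 CPM in NC to 1810 ± 49.9 CPM in PON1-OE (log2FC 0.16, adjusted p = 0.0325 in edgeR). *AHR*, the aryl hydrocarbon receptor, *PPARA*, a fatty acid-sensing receptor, and *NR1H4*, the bile acid receptor, were named after their values were seen, with log2FC values of −0.20, −0.26 and −0.71 and adjusted p-values of 0.0833, 0.225 and 0.212. *NR1H4* had 57, 53 and 80 counts in the NC libraries against 37, 34 and 37 with PON1-OE. *NR1I2*, the pregnane X receptor, and *NFE2L2*, the antioxidant response factor, had values of 0.0089 and 0.04.

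Of 13 hepatic solute carriers of uptake, bile acid export and cation efflux, 12 were in the table and 5 were tested, with 0 at an unadjusted p under 0.05 in edgeR. *SLC10A1*, the bile acid uptake carrier, and *SLCO1B1*, a carrier of organic anions, had no count in any library. *SLC22A3*, an organic cation carrier, and *SLC51B*, a subunit of the basolateral bile acid exporter, had the lowest p of this list, with log2FC values of 0.09 and −0.17. Among the 14 partners of ABC members, *GSPT1* and *HBS1L*, which act in translation termination and ribosome rescue, had log2FC values of −0.10 and −0.25 with adjusted p-values of 0.252 and 0.278 in edgeR, and they were the only 2 of the 14 with an unadjusted p under 0.05 (14.3%, against 11.1% of all genes).

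**Figure D5:**
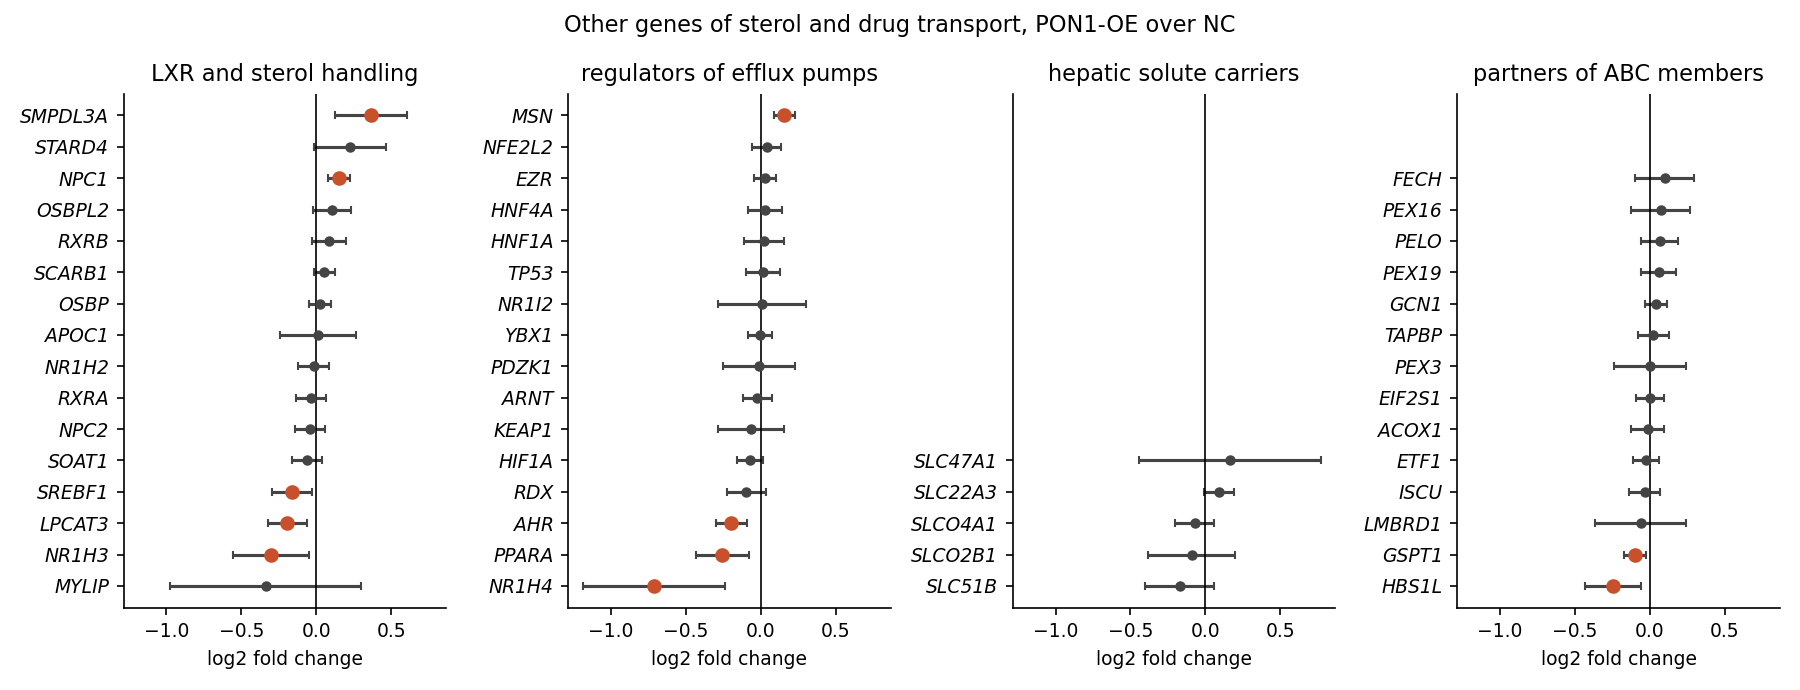
Log2 fold change (PON1-OE over NC) with the 95% interval from edgeR for the tested genes of 4 lists; orange points have an unadjusted p under 0.05. *MSN* at 0.16 is the one gene here with an adjusted p under 0.05, and the lists hold values on both sides of 0.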

How the data were processed

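Poly(A) RNA libraries of 3 NC and 3 PON1-OE samples of HCCLM3 were compared. The authors deposited estimated counts per gene, not normalized, of which 10.5% were not whole numbers. The submitters' processing notes name Bowtie2 2.2.8, HISAT2, StringTie 1.3.1 and DESeq2. The roles of these tools, the genome build, the annotation and the use of strand are not given in the sources used here. Coordinates, exon overlaps (at least 50 bases) and lengths were taken from GENCODE v29 on GRCh38, in which 20126 of the 20381 identifiers were found.

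Counts were rounded, filtered with filterByExpr, scaled by TMM and tested in R 4.3.3 with edgeR 4.0.16 (glmQLFit, glmQLFTest), PON1-OE against NC, with Benjamini-Hochberg adjustment over the 11958 genes tested. Standard errors are |log2FC| over the root of the F statistic. Library totals of 15706672 to 17948383 counts set a floor of 3 counts at 0.166 to 0.192 CPM. Exact permutation tests over libraries used log2(CPM + 0.5). Besides, the fit was repeated with RLE scaling, without the filter, with a minimum of 10 counts per library, with a block for replicate number, with DESeq2 1.42.0, limma-voom (limma 3.58.1), with a 1.5-fold threshold, without each library and, added after the data were seen, with sums over genes that share exons. Fits were tested on simulated counts with the same dispersion for all genes and with differences larger than most found here. Recovery of smaller differences was not tested. Pairs of libraries of a group differed by more than sampling noise (chi-square per degree of freedom 2.11 to 4.11).

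The members, roles and lists were chosen with earlier results of these data known. Named were all tested sterol exporters and drug pumps, other members with an unadjusted p under 0.05, the highest member of each subfamily and, from the other lists, genes with an adjusted p under 0.05 or else the 2 lowest p-values. Members without overlap of the groups and some list genes were named after their values were seen. *SLC22A18*, a listed solute carrier, was not matched by symbol. The values of 2 members are not reported here, though sums and counts over the family include them.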

Additional observations from a re-analysis of the deposited data

How the results depend on the processing

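No member passed an adjusted p under 0.05 under any alternative, but DESeq2 gave no adjusted p for 20 of the 31. The count of members at an unadjusted p under 0.05, 5 in edgeR, was 2 with DESeq2 (both lower), 0 with the 1.5-fold threshold, 6 with RLE scaling and 6 with at least 10 counts in every library (both adding *ABCB4*), and 1 to 5 with single libraries left out. It was 1 without NC replicate 3 (*ABCG2*), 2 without PON1-OE replicate 3 (*ABCA1* and *ABCG2*), 3 without NC replicate 1 and 3 without NC replicate 2. Of all genes tested, 11.1% were called in edgeR, 7.58% with DESeq2, 10.9% with limma-voom and 0.61% with the 1.5-fold threshold. This share was not computed for the other alternatives, so changes of their counts cannot be read as results about the members. Leaving the fold threshold aside, *ABCG2* was called under the other 12 alternatives and *ABCA1* under 10. The count of sterol exporters was 0 to 1 with single libraries left out, 0 without NC replicate 3 or PON1-OE replicate 2, and that of drug pumps 1 to 2, with *ABCC5* added without NC replicate 2. The cause was not tested. Log2FC values near 0 changed sign with single libraries left out. Their ranges were −0.0284 to 0.0126 for *ABCC1*, −0.0409 to 0.0246 for *ABCC2*, −0.0083 to 0.1423 for *ABCC4*, −0.055 to 0.0878 for *ABCC10*, −0.0887 to 0.0138 for *ABCE1* and −0.0577 to 0.029 for *ABCF2*. *PON1* had a log2FC of 6.65 and 6.13 to 7.33 with single libraries left out. It gave no value with at least 10 counts in every library and no adjusted p in DESeq2.

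The replicate numbers gave no sign of pairing. Same-numbered libraries had correlations of −0.0231 to 0.0205 in their deviations from the group means, and differently numbered ones −0.0942 to 0.0714. With 3 libraries a group this cannot show that the libraries were unpaired. With the replicate number as a block, 4 members were called at an unadjusted p, and *ABCF1* was lost (0.0631). No other member lost its call under the block. Counts of 28 to 68 per library leave wide intervals for *ABCB4* and *ABCC6*.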

Other observations

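Members of the ABC family that carry other symbols were looked at outside the report. *TAP1* and *TAP2*, which together carry peptides into the endoplasmic reticulum for MHC class I, had log2FC values of 0.09 and −0.11 with unadjusted p-values of 0.116 and 0.122 in edgeR. *TAP1* was 55.2, 54.7 and 54.9 CPM in replicates 1 to 3 of NC and 58, 57.3 and 60.2 CPM in those of PON1-OE, so that all PON1-OE libraries lay above all NC libraries. *TAP2* overlapped between the groups, with 56 ± 4.46 CPM for NC against 52 ± 2.82 CPM for PON1-OE. *CFTR*, the chloride channel of subfamily C, had no count in any library.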
